A study of Mus musculus with 6 samples.

Results

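The genes described here are 10 that act at the G1 stage of the cell cycle. They are the D-type cyclin genes Ccnd2 and Ccnd3, the E-type cyclin genes Ccne1 and Ccne2, the cyclin-dependent kinase (CDK) genes Cdk2, Cdk4 and Cdk6, the CDK inhibitor genes Cdkn1b and Cdkn2c, and Rb1. They were chosen by symbol among the 24047 rows of a table of read counts. All 10 were found there and in a second table of length-scaled values, and all 10 passed the filter on low counts.

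The tested mice carried floxed Srsf1 alleles on both chromosomes and a dLck.Cre transgene (Srsf1-cKO, 3 mice), and they were compared with mice labelled WT (3 mice). In mice with dLck.Cre, the distal Lck promoter drives Cre late in T cell development. No source used here says whether the WT mice carried floxed alleles or Cre. All mice were 7 weeks old and of a strain labelled B6.129. Naive CD4 T cells of each spleen received anti-CD3 at 0.5 µg/mL together with anti-CD28 at 1 µg/mL during a culture of 72 h. A second stimulus of 4 h followed, with the phorbol ester PMA at 100 ng/mL plus the calcium ionophore ionomycin at 1 µM, and mRNA was then sequenced. All 6 libraries come from this single time, and no unstimulated sample was analysed here.

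Naive T cells rest outside the cycle and enter G1 when their receptors and costimulation are engaged. D-type cyclins then pair with CDK4 or CDK6 and E-type cyclins with CDK2, and these kinases phosphorylate the retinoblastoma protein RB1. Unphosphorylated RB1 holds E2F transcription factors in check, and its phosphorylation frees them to drive genes of DNA replication. The protein p27, encoded by Cdkn1b, binds cyclin-CDK complexes and restrains CDK2, and the protein p18, encoded by Cdkn2c, binds CDK4 and CDK6 and blocks their pairing with D-type cyclins. Much of this regulation is set by protein turnover and phosphorylation, which mRNA levels do not show.

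The libraries held between 7781283 and 10184268 gene counts. Srsf1 itself had 4839, 4911 and 5022 counts in the libraries labelled Srsf1-cKO, against 4889, 3520 and 3679 counts in WT libraries, so its mRNA over the whole gene was not lower (log2 fold change 0.06, SE 0.12, edgeR adjusted p = 0.78). The loss of a few floxed exons could go unseen in such a gene-level count. Since Srsf1 mRNA does not check the label, these libraries are called cKO-labelled throughout, and every direction is that of cKO-labelled against WT libraries. The 6 T cell markers Cd3e, Cd3d, Cd3g, Cd4, Cd28 and Lck summed to 1419 to 1931 CPM (counts scaled to the TMM-corrected library size) in cKO-labelled and 1519 to 1861 CPM in WT libraries. Of these 6, 1 was higher by the test and 0 lower, the higher one being Cd3g (log2 fold change 0.72, edgeR adjusted p = 0.0452). Cd28 was below WT in every cKO-labelled library and did not pass (log2 fold change -0.41, edgeR adjusted p = 0.0841). Among markers of other cells, the CD8 T cell genes Cd8a and Cd8b1 summed to 16.7 to 22.8 CPM in cKO-labelled and 24.6 to 42.5 CPM in WT libraries, with every cKO-labelled sum below every WT sum (0 of 1 tested passed, Cd8b1 adjusted p = 0.115). The 4 B cell markers summed to 7.97 to 19.4 CPM in cKO-labelled and 1.19 to 6.50 CPM in WT libraries (1 of 4 higher by the test), and the 5 myeloid markers to 6.69 to 20.4 CPM in cKO-labelled and 0.396 to 3.77 CPM in WT libraries (1 of 2 tested higher). The 4 dendritic cell markers summed to 0.756 to 1.5 CPM in cKO-labelled and 0.26 to 0.552 CPM in WT libraries, and 0 of them were tested. Of these, Itgax had 5, 7 and 13 counts in cKO-labelled libraries and 0 in each WT library. Flt3 had 2, 2 and 3 counts in cKO-labelled and 4, 2 and 3 counts in WT libraries, and Xcr1 had 1 count, in WT replicate 1. The NK marker Ncr1, the dendritic cell marker Siglech and the erythroid marker Hbb-b1 were at 0 in every library in both tables. The erythroid marker Hba-a1 had 0 counts in every library, but the authors' FPKM table lists it at 0.331, 0.836 and 0.784 FPKM in cKO-labelled and at 0 in WT libraries. Whether these CD8 T cell, B cell, myeloid, dendritic cell and erythroid transcripts bear on the differences below was not tested.

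Cdk4, Ccne2 and Rb1 were the genes of this group that passed the test of cKO-labelled against WT libraries. Cdk4 and Ccne2 rose in cKO-labelled libraries and Rb1 fell, and the other 7 did not pass (edgeR quasi-likelihood test, adjusted p under 0.05 over all 10454 genes tested). That is 3 of 10 called in either direction, where 18.4% of all genes tested were. Of the 10, 2 rose, where 8.9% of all genes tested did, and 1 fell, where 9.5% did. The log2 fold change had a median of 0.04 over the 10 genes, against 0.01 over all genes tested. The same 3 genes were those whose groups did not overlap in CPM, where 39.4% of all genes tested did not overlap.

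**Figure D1:**
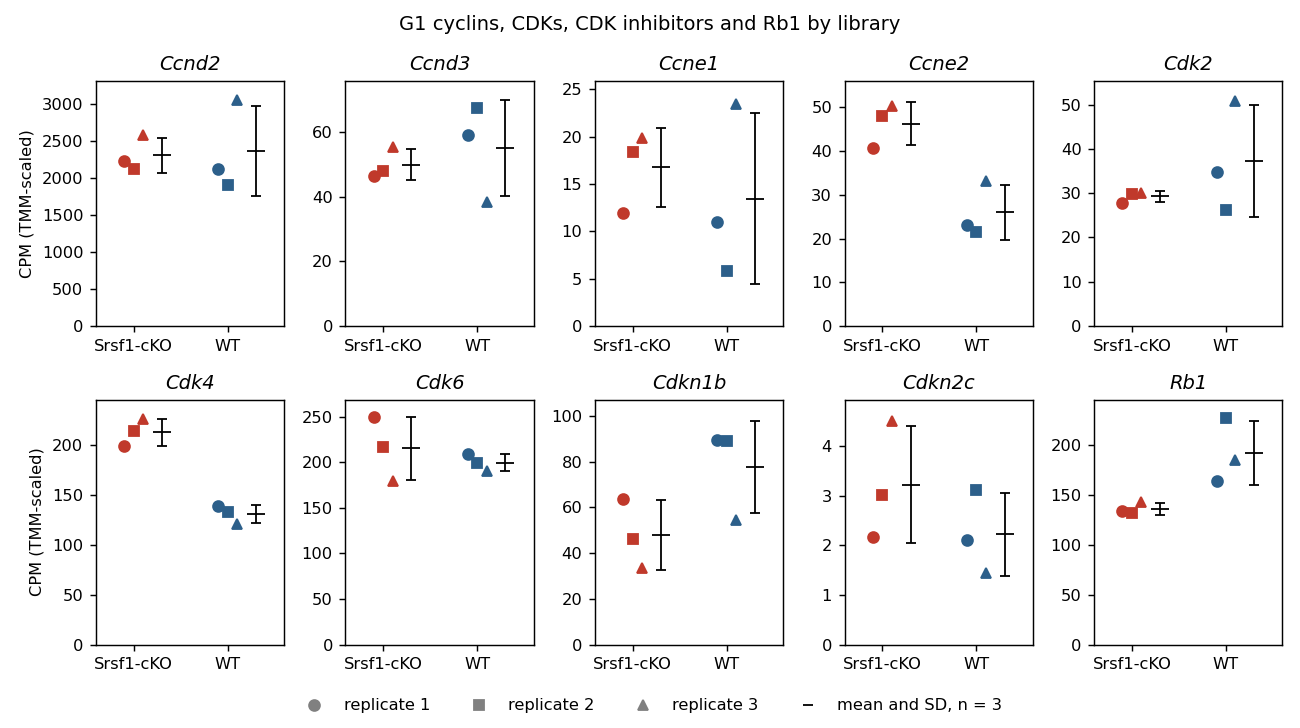
Each panel plots one gene's CPM (TMM-scaled, axis from 0) in the 3 cKO-labelled libraries on the left and the 3 WT libraries on the right; symbols mark replicates and black bars the mean and SD. Cdk4 and Ccne2 lie wholly above WT and Rb1 wholly below it, while the other 7 genes overlap.

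The promoter sequence of Cdk4, which had the smallest adjusted p of the genes, is shown beside that of Cdk6, its closest relative, which did not pass. Each line gives the 250 bases before the RefSeq transcript start, 5′ to 3′ on the gene's strand (GRCm38.p6, plus strand in both, chr10:127063285-127063534 for Cdk4 and chr5:3343643-3343892 for Cdk6). Capitals mark the letters CACGTG, the core of the E-box that MYC and related factors bind, which read the same on both strands.
Cdk4: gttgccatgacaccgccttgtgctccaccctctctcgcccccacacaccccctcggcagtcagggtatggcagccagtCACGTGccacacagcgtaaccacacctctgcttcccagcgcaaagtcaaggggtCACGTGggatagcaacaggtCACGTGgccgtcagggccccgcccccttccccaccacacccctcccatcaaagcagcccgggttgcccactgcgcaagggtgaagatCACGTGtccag
Cdk6: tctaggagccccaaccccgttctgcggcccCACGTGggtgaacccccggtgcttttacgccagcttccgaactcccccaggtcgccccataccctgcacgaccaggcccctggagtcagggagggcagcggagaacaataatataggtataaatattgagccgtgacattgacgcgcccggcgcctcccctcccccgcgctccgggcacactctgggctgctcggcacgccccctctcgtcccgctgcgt
The Cdk4 window held CACGTG at 4 places, starting 172, 118, 98 and 11 bases before the transcript start, and the Cdk6 window at 1 place, 220 bases before it. Of 32851 windows of 300 bases (250 before to 50 after a start) in the RefSeq table, 7.15% held CACGTG at least once and 8 windows (0.0244%) held it 4 or more times. The E2F motif forms TTTCCCGC and TTTGGCGC were searched on both strands of the same windows, and 1.56% of all windows held either. Among 9 windows matched for 7 of the 10 genes, 1 did, that of Cdk2, with TTTCCCGC on the opposite strand at 140 bases before the start. CACGTG was in 3 of the same 9 windows, those of Cdk4 and Cdk6 and 1 of Cdkn2c, a gene that did not pass. The table had no window for Ccnd2, Ccne2 and Rb1. These matches are letters in a window, and no binding was measured. Myc mRNA stood at 1026 ± 223 CPM in cKO-labelled and 1300 ± 229 CPM in WT libraries (SD, n = 3 each) and did not pass (adjusted p = 0.225). The CACGTG search was chosen after the values were seen. Its cut-off of 4 equals the number in the Cdk4 window itself, so the share above it is no separate measure of how rare that window is. Any part of MYC in the Cdk4 difference was not tested.

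Levels can be compared between genes only per transcript length, so they are given here as the authors' FPKM (a read level corrected for the length of the transcript and the depth of the library). Ccnd2 was the most abundant of the 10 by this measure, at 305 ± 30.5 FPKM in cKO-labelled and 292 ± 76.8 FPKM in WT libraries (SD, n = 3 each), and its mean over the 6 libraries was at or above that of 98.2% of the genes tested. Cdk4 and Cdk6 followed, at means of 106 and 63.2 FPKM over the 6 libraries. This order of the first 3 was the same in every library. The genes after them changed places between libraries. Rb1, Ccnd3 and Cdkn1b lay close together, at 25.8, 21.6 and 19.96 FPKM. Cdk2 and Ccne2 stood at 10.96 and 9.12 FPKM, and Ccne2 was above Cdk2 in the 3 cKO-labelled libraries and below it in the 3 WT libraries. Ccne1 (6.03 FPKM) and Cdkn2c (1.99 FPKM) were lowest by their means, though Ccne1 exceeded Ccne2 in WT replicate 3 and Cdkn2c exceeded Ccne1 in WT replicate 2.

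**Figure D2:**
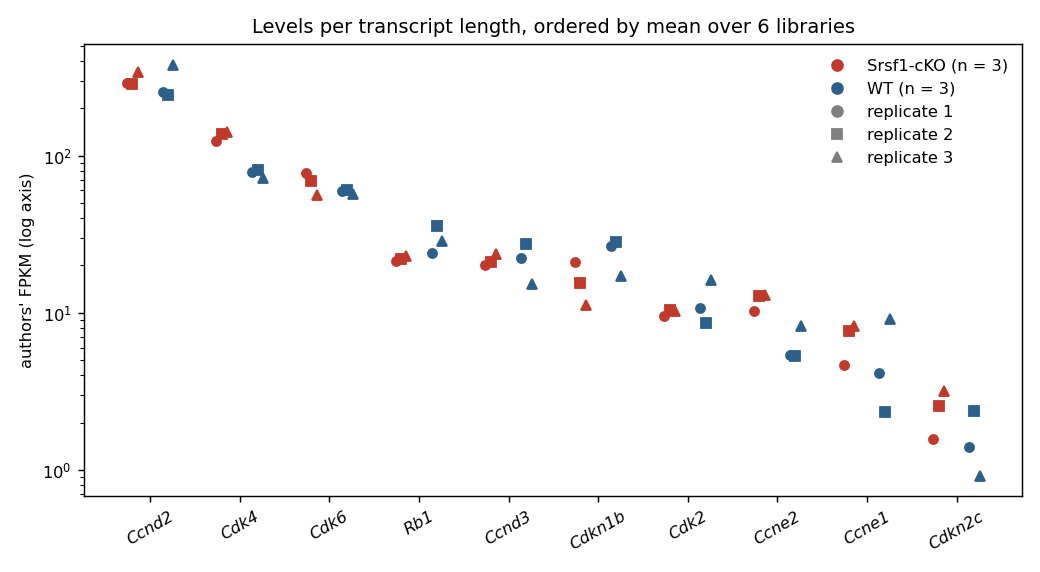
The authors' FPKM of each gene (log axis) in the 6 libraries, with genes ordered by their mean, cKO-labelled libraries left of WT and symbols marking replicates. Ccnd2, Cdk4 and Cdk6 lead in every library, and the genes after them exchange places.

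Among the kinases, Cdk4 rose and its relative Cdk6 did not pass. Cdk4, whose kinase is the usual partner of D-type cyclins in many tissues, had 199, 215 and 226 CPM in cKO-labelled libraries, against 139, 133 and 122 CPM in WT libraries. The groups were far apart, and the libraries of each group lay close together, with a coefficient of variation of 6.37% in cKO-labelled and 6.64% in WT libraries. The log2 fold change was 0.70 (SE 0.12, 95% interval 0.43 to 0.98, adjusted p = 0.00988), or 1.63-fold. Exons of Tspan31, a tetraspanin gene on the opposite strand, cover 31.2% of the annotated Cdk4 exon bases, and whether counting used the strand is not given. Tspan31 had 30.9, 34.2 and 52.98 CPM in cKO-labelled and 27.7, 22.9 and 53.9 CPM in WT libraries, with groups that overlapped (adjusted p = 0.73). Its highest WT library, replicate 3, was the lowest of all for Cdk4. Any part of Tspan31 reads in the Cdk4 counts was not tested.

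Cdk6, the other partner of D-type cyclins and a kinase prominent in blood cells, had 249.5, 217 and 180 CPM in cKO-labelled and 209, 199 and 191 CPM in WT libraries. The cKO-labelled libraries lay on both sides of WT. Its log2 fold change was 0.11 (95% interval -0.22 to 0.43, adjusted p = 0.623), which leaves room for a change of up to 1.35-fold higher. The ratio of Cdk6 to Cdk4 within a library, which does not depend on scaling between libraries, was 0.621, 0.506 and 0.393 by FPKM in cKO-labelled libraries, against 0.755, 0.745 and 0.784 in WT libraries. Every cKO-labelled ratio was below every WT ratio, and the WT ratios were the more alike. Cdk2, the partner of E-type cyclins, had 27.9, 29.9 and 30.1 CPM in cKO-labelled and 34.7, 26.1 and 50.9 CPM in WT libraries. WT replicate 3 stood above the other WT libraries, and the gene did not pass (log2 fold change -0.35, 95% interval -0.87 to 0.18, adjusted p = 0.316).

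Among the cyclins, Ccne2 rose. It encodes cyclin E2, and it had 40.7, 47.9 and 50.3 CPM in cKO-labelled libraries, against 23.2, 21.6 and 33.2 CPM in WT libraries. The highest WT library, replicate 3, stayed below the lowest cKO-labelled one. The log2 fold change was 0.83 (SE 0.20, 95% interval 0.39 to 1.28, adjusted p = 0.0226), or 1.78-fold, and without WT replicate 3 it was 1.03 (adjusted p = 0.00622). Exons of Ints8 on the opposite strand cover 10.5% of its exon bases. Ints8, a subunit gene of the Integrator complex, had 119, 124 and 80.5 CPM in cKO-labelled and 92.98, 90.3 and 59.5 CPM in WT libraries and did not pass (adjusted p = 0.211).

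Ccne1, which encodes cyclin E1, spread more widely than any other of the 10 in WT libraries. It had 12.0, 18.4 and 19.9 CPM in cKO-labelled and 11.0, 5.85 and 23.5 CPM in WT libraries, a 4.01-fold span within WT, and the groups overlapped (log2 fold change 0.32, 95% interval -0.65 to 1.29, adjusted p = 0.627). Its interval includes the fold change of Ccne2, so the 2 E-type cyclin genes are not shown to differ in response. The ratio of Ccne2 to Ccne1 by FPKM was 2.18, 1.67 and 1.56 in cKO-labelled and 1.31, 2.29 and 0.891 in WT libraries, which overlap. The sign of the Ccne1 change depended on WT replicate 2, without which it was -0.04.

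The D-type cyclin genes did not pass. Ccnd2, a cyclin induced when lymphocytes are activated, had 2228, 2118 and 2579 CPM in cKO-labelled and 2127, 1907 and 3061 CPM in WT libraries. The cKO-labelled values all lay inside the WT range (log2 fold change -0.04, 95% interval -0.45 to 0.38, adjusted p = 0.912), and the sign was positive under library-size scaling and in FPKM. Ccnd3, which immature mouse thymocytes need to expand, had 46.3, 48.1 and 55.2 CPM in cKO-labelled and 59.1, 67.4 and 38.5 CPM in WT libraries, again inside the WT range (log2 fold change -0.14, 95% interval -0.61 to 0.33, adjusted p = 0.658). The sign was positive in FPKM and without WT replicate 2. Exons of Bysl on the opposite strand cover 14.8% of the Ccnd3 exon bases, and Bysl did not pass (edgeR adjusted p = 0.997). In WT replicate 3 Ccnd2 was highest and Ccnd3 lowest of all 6 libraries. The ratio of Ccnd3 to Ccnd2 by FPKM was 0.0692, 0.0742 and 0.0699 in the cKO-labelled libraries. It was 0.0877 and 0.113 in WT replicates 1 and 2, which lie above these, and 0.0399 in WT replicate 3, which lies below. Ccnd1, the third D-type cyclin gene, which lymphocytes hardly express, was removed by the low-count filter of the analysis reported. It had 8, 20 and 27 counts in cKO-labelled and 0, 0 and 2 counts in WT libraries, every cKO-labelled count above every WT count.

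Among the brakes, Rb1 fell. It had 133, 131 and 142 CPM in cKO-labelled libraries, against 164, 226 and 185 CPM in WT libraries. The cKO-labelled libraries were nearly equal (coefficient of variation 4.20%, against 16.6% in WT), and all lay below the lowest WT library. The log2 fold change was -0.50 (SE 0.14, 95% interval -0.82 to -0.17, adjusted p = 0.0429), or 0.708 of the WT level. Of 19 alternative settings, 9 kept the call and 10 did not, with values from -0.62 to -0.37 and adjusted p up to 0.168. Without WT replicate 2, the library with the most Rb1, the change was -0.37 (adjusted p = 0.0809), and on FPKM values it was -0.38 (limma adjusted p = 0.125). Lpar6, a lysophosphatidic acid receptor gene that lies inside Rb1 on the opposite strand, went the other way. It was chosen after its values were seen, and it had 51, 49 and 82 counts in cKO-labelled and 19, 22 and 21 counts in WT libraries (log2 fold change 1.28, SE 0.28, adjusted p = 0.0197). No Lpar6 exon overlaps an Rb1 exon in the annotation. Exons of Rcbtb2 on the opposite strand cover 2.26% of the Rb1 exon bases, and Rcbtb2 did not pass (edgeR adjusted p = 0.784).

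Cdkn1b had the lowest fold change of the 10 and did not pass. It had 63.8, 46.3 and 33.4 CPM in cKO-labelled and 89.6, 89.0 and 54.5 CPM in WT libraries. The groups overlapped only through cKO-labelled replicate 1 and WT replicate 3 (log2 fold change -0.70, SE 0.27, 95% interval -1.30 to -0.10, unadjusted p = 0.0267, edgeR adjusted p = 0.096). Without WT replicate 3 the change was -0.92 (adjusted p = 0.027), which passed. With any other library left out it did not pass (edgeR adjusted p from 0.0524 to 0.27). Cdkn2c, the least abundant, had 20, 27 and 48 counts in cKO-labelled and 19, 24 and 11 counts in WT libraries. Its interval was wide (log2 fold change 0.54, 95% interval -0.37 to 1.45, adjusted p = 0.369), so at this depth neither a fall to 0.774 of the WT level nor a rise of 2.74-fold lies outside it.

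**Figure D3:**
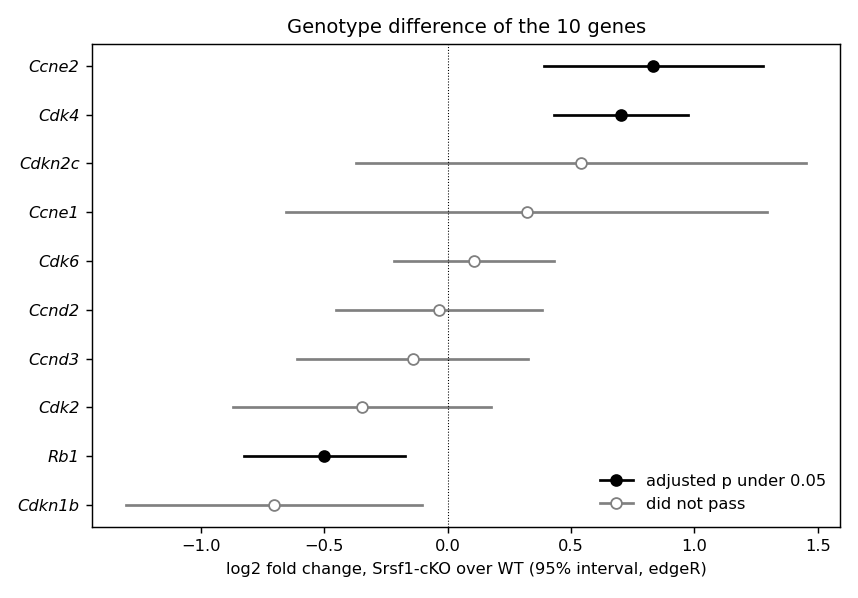
Log2 fold changes of the 10 genes, cKO-labelled over WT, with 95% intervals from edgeR; filled black marks an adjusted p under 0.05. Ccne2 and Cdk4 lie above 0 and Rb1 below it, and the interval of Cdkn1b (-1.30 to -0.10) excludes 0 although its adjusted p does not pass.

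The libraries of each group differed among themselves at these genes. Replicate 3 of the cKO-labelled group was the highest or lowest of its group for all 10 genes, and for 82.3% of all genes tested. WT replicate 3 was so for 9 of the 10, all but Rb1, and for 75.8% of all genes tested. WT replicate 3 had the most Ccnd2, Ccne1, Ccne2 and Cdk2 and the least Ccnd3, Cdk4, Cdk6, Cdkn1b and Cdkn2c of the WT libraries. The heat shock gene Hspa1a had 12, 8 and 12 counts in cKO-labelled libraries, and 34 in WT replicate 3 against 1396 and 965 in WT replicates 1 and 2. Rn45s, the ribosomal RNA precursor gene, held 16700, 18240 and 16010 CPM in cKO-labelled and 20180, 6064 and 12430 CPM in WT libraries. The part of either in the results was not tested. The coefficient of variation was lower in cKO-labelled than in WT libraries for 8 of the 10 genes, the others being Cdk6 and Cdkn1b, where 59.2% of all genes tested had the lower value in cKO-labelled libraries.

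Leaving out 1 library at a time kept the sign of Cdk4, Ccne2, Rb1 and Cdkn1b in all 6 settings. The Cdk4 change stayed between 0.63 and 0.75, with adjusted p = 0.0562 without cKO-labelled replicate 2, 0.0535 without WT replicate 1, and at most 0.0244 in the others. Ccne2 stayed between 0.71 and 1.03 and missed the threshold without cKO-labelled replicate 2 (adjusted p = 0.093), cKO-labelled replicate 3 (0.0565) and WT replicate 1 (0.104). Rb1 passed only without WT replicate 3 (adjusted p = 0.0458). Among all genes, 234 were called without cKO-labelled replicate 2 and 194 without WT replicate 1, against 1923 with all libraries. In both of these settings 0 of the 10 genes passed in edgeR. At an unadjusted p under 0.05, 2 were higher and 1 lower in both, and the share of all genes at that p was not counted there. With all libraries, 1795 of all 10454 genes tested were higher and 1849 lower at that p. DESeq2 on all libraries called 4 of the 10, and 2290 of all 10453 genes.

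**Figure D4:**
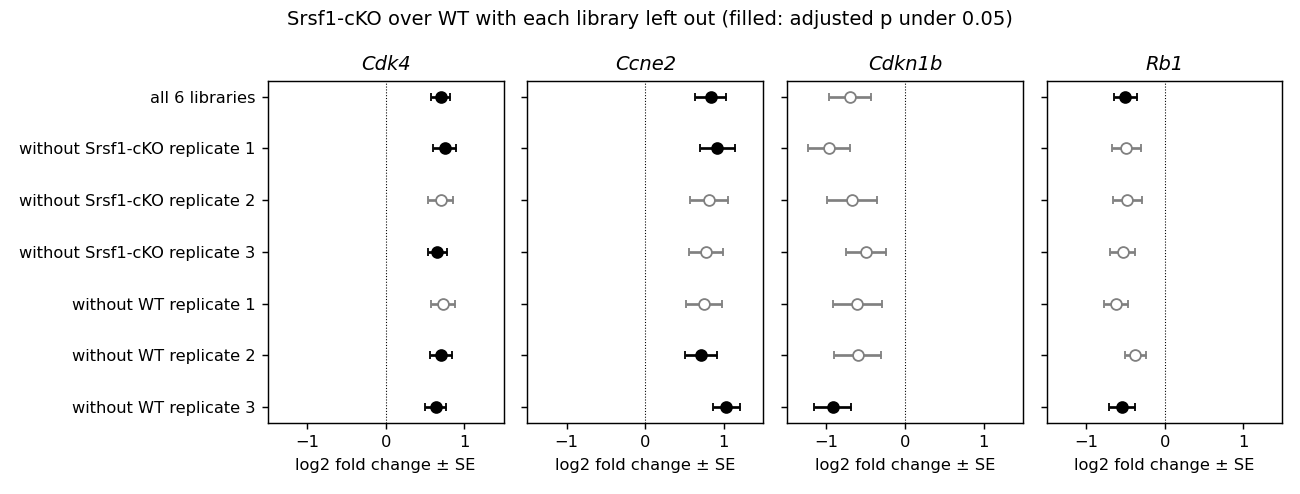
Log2 fold change with its SE for Cdk4, Ccne2, Cdkn1b and Rb1 with all 6 libraries and with each left out in turn; filled points have an adjusted p under 0.05. The points keep their side of 0 in every row, while several lose the call.

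The scaling between libraries shifts all genes together. With TMM scaling 930 genes were higher and 993 lower in cKO-labelled libraries, and with library size alone 1268 were higher and 709 lower, which put the median of all genes at a log2 fold change of 0.11. Relative to that shift, Ccnd2 (0.07 on that scale) remained below the median of all genes, and Rb1 stood at -0.40 (adjusted p = 0.0948). Cdk4 and Ccne2 passed under each of the 4 scalings tried. In such bulk samples, a change in the share of cycling cells and a change in mRNA per cell cannot be told apart.

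Of 12 tested genes for the other pocket proteins, the E2F factors and their DP partners, 2 rose and 2 fell, where 8.9% of all genes tested rose and 9.5% fell. Rbl2, which encodes the RB1 relative p130 of resting cells, fell to 28.9, 23.5 and 33.6 CPM in cKO-labelled libraries, against 40.6, 49.1 and 46.4 CPM in WT libraries (log2 fold change -0.66, SE 0.17, adjusted p = 0.0324). Rbl1, which encodes the relative p107, stood at 76.9 ± 2.14 CPM in cKO-labelled and 58.0 ± 20.01 CPM in WT libraries and did not pass (adjusted p = 0.217). The genes of the 2 DP proteins, which pair with E2F factors, moved oppositely. Tfdp1, the most abundant of the list by FPKM, rose to 186, 190.4 and 187 CPM, against 116, 116 and 138 CPM in WT libraries (log2 fold change 0.61, SE 0.12, adjusted p = 0.0143). Tfdp2 fell to 15.97, 15.1 and 22.1 CPM, against 38.1, 29.1 and 103 CPM in WT libraries (log2 fold change -1.68, SE 0.44, adjusted p = 0.0313), with WT replicate 3 far above the others. E2f8, an atypical E2F that represses, rose to 16.6, 27.1 and 20.3 CPM, against 10.8, 11.7 and 10.4 CPM in WT libraries (adjusted p = 0.0201). The activator gene E2f1 did not pass (7.36 ± 2.36 CPM in cKO-labelled, 6.50 ± 0.612 CPM in WT), nor did E2f2 and E2f3.

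Of 8 tested genes among other G1 cyclins, CDK inhibitors and CDK activators, 1 rose and 1 fell, a share near the 8.9% and 9.5% of all genes tested. Without the low-count filter all 12 of this list were tested, Ccnd1 among them, and 2 rose and 1 fell. In that setting 998 of all 15114 genes tested rose and 1174 fell. Ccna2, the gene of cyclin A, which follows cyclin E as the partner of CDK2, rose to 121, 170 and 175 CPM in cKO-labelled libraries, against 42.5, 78.1 and 35.1 CPM in WT libraries (log2 fold change 1.58, SE 0.29, adjusted p = 0.0111). Mnat1, which encodes an assembly factor of the CDK-activating kinase, fell to 25.8, 26.9 and 30.1 CPM, against 45.5, 46.0 and 36.4 CPM in WT libraries (log2 fold change -0.63, adjusted p = 0.0284). Its partners Cdk7 and Ccnh did not pass. Cdkn1a, which encodes the inhibitor p21, stood at 208 ± 26.5 CPM in cKO-labelled and 242 ± 36.6 CPM in WT libraries and did not pass (adjusted p = 0.35). The remaining INK4 inhibitor genes Cdkn2a, Cdkn2b and Cdkn2d had at most 13 counts in any library and were not tested. The authors' tables differ on Cdkn2d, which had 3, 3 and 1 counts in cKO-labelled and 8, 2 and 4 counts in WT libraries, yet 3.25, 2.82 and 2.91 FPKM in cKO-labelled and 4.66, 5.004 and 4.14 FPKM in WT libraries. Every cKO-labelled FPKM value was below every WT one, and its mean of 3.798 FPKM over the 6 libraries was above that of Cdkn2c.

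Of 12 tested genes for the turnover of G1 cyclins and p27, 1 rose and 0 fell, a share near the 8.9% of all genes tested that rose. At an unadjusted p under 0.05 in edgeR, 3 were higher and 1 lower, where 1795 of all 10454 genes tested were higher and 1849 lower. DESeq2 called 1 higher and 0 lower, where it called 1058 of all 10453 genes higher and 1232 lower. None of the 12 passed with the replicate block or in 5 of the 6 settings with 1 library left out, all but that without cKO-labelled replicate 3. At an unadjusted p under 0.05, 5 were higher and 1 lower with the block, and 1 to 4 higher and 0 to 2 lower in those 5 settings. The share of all genes at that unadjusted p was not counted with the block or in those 5 settings. The one that rose was Skp2, the F-box gene whose ligase marks p27 for destruction, at 10.8, 14.9 and 13.0 CPM in cKO-labelled libraries, against 8.95, 6.63 and 7.25 CPM in WT libraries (log2 fold change 0.76, SE 0.22, adjusted p = 0.0432). Its cofactor gene Cks1b (adjusted p = 0.227) and Fbxw7, whose ligase marks cyclin E (adjusted p = 0.48), did not pass. Skp1a, the most abundant of the list by FPKM, encodes the adaptor that joins F-box proteins to their ligase. It stood at 124 ± 7.61 FPKM in cKO-labelled and 88.6 ± 7.98 FPKM in WT libraries (SD, n = 3 each), and the test on its counts did not pass (adjusted p = 0.0768).

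Of 20 textbook E2F target genes, 10 rose and 0 fell, where 8.9% of all genes tested rose. At an unadjusted p under 0.05 in edgeR, 16 were higher and 0 lower, where 1795 of all 10454 genes tested were higher. DESeq2 called 13 higher and 0 lower, where it called 1058 of all 10453 genes higher. The median log2 fold change of the 20 genes was 0.61, against 0.01 over all genes tested, and 19 of the 20 had a positive value, the exception being Cdt1. Tyms, thymidylate synthase, had 25.7, 38.4 and 54.3 CPM in cKO-labelled libraries, against 9.72, 10.8 and 12.3 CPM in WT libraries. Rrm2, a ribonucleotide reductase subunit, had 61.95, 91.1 and 104.5 CPM, against 26.5, 29.4 and 34.0 CPM in WT libraries. The kinase gene Cdk1 (log2 fold change 1.16) and the polymerase gene Pola1 (0.93) also rose. Pcna, the replication clamp and the most abundant of the list by FPKM, had 194, 236 and 307 FPKM in cKO-labelled and 153, 152 and 187 FPKM in WT libraries, and the test on its counts did not pass (adjusted p = 0.107). The number that rose was 2 without WT replicate 1, 3 without cKO-labelled replicate 2 and between 7 and 12 without each of the others, with a median of at least 0.53 in each of these 6 settings. The list was written with an earlier result on such genes known, so it is no independent evidence of their direction.

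**Figure D5:**
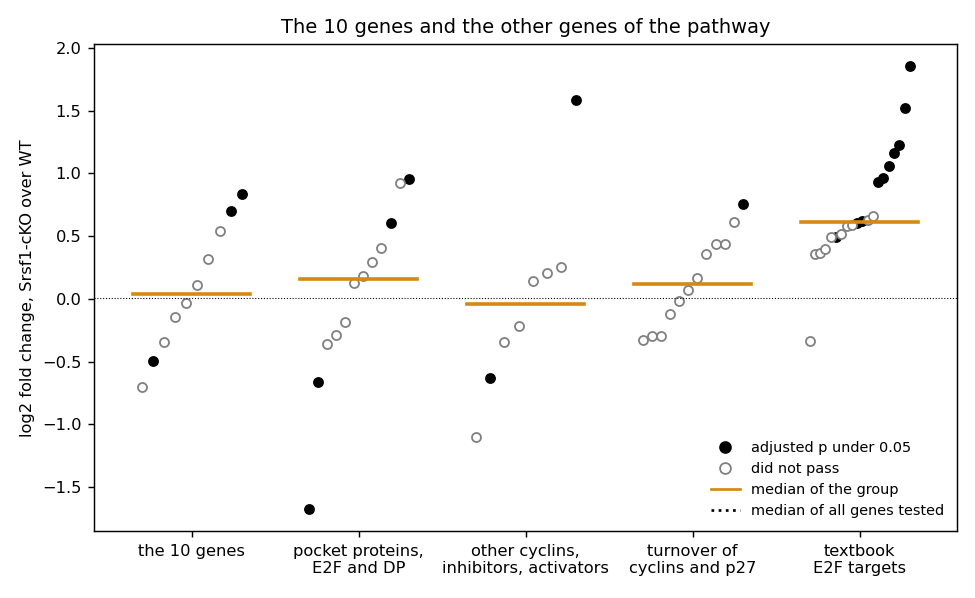
Log2 fold changes, cKO-labelled over WT, of the 10 genes and of the tested genes of the 4 pathway lists; filled points passed the test, orange bars are medians and the dotted line is the median of all genes tested. The E2F targets lie mostly above the line, with a median of 0.61, and the other groups on both sides of it.

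The genes whose profile over the 6 libraries was most like that of a changed gene were found by the root mean square difference in log2 CPM, each gene centred on its own mean. A like fold change and a like separation of the groups follow from that choice and are no separate result. For Cdk4 these were Nhp2l1, Hypk and Ppif, with differences of 0.05 each, and their log2 fold changes were 0.64, 0.78 and 0.79. For Ccne2 they were Phtf2 (difference 0.07), Map3k5 (0.08) and Snx33 (0.09), with log2 fold changes of 0.74, 0.89 and 0.78, of which Snx33 did not pass (adjusted p = 0.0742). For Rb1 they were Prkcq, Smap1 and 4921524J17Rik, with differences of 0.06 each and log2 fold changes of -0.53, -0.40 and -0.57, of which Smap1 did not pass (adjusted p = 0.0868). Prkcq, the gene of the T cell kinase PKC theta, had 118, 111 and 130 CPM in cKO-labelled libraries, against 154, 209 and 156 CPM in WT libraries, and its groups did not overlap.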

How the data were processed

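RNA was sequenced from 3 Srsf1-cKO and 3 WT libraries, each from one mouse per the series' design text. The authors deposited whole-number read counts per gene, not normalized, and a table of FPKM values, a unit read from the values since the table is named as counts. Per the submitters' processing notes, STAR, Cufflinks and the mm9 build were used, and a deposited file header names STAR 2.4.2a. No source used here names the annotation, the counting program or its use of strand.

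Counts of all 24047 rows were filtered with filterByExpr (10454 genes left), scaled by TMM and fitted in edgeR 4.0.16 under R 4.3.3. Its two-sided quasi-likelihood test had a single term, genotype, and p-values were adjusted by Benjamini-Hochberg over all genes tested. An adjusted p under 0.05 was called. As an alternative, limma 3.58.1 was run on log2(FPKM + 1) for the 9617 genes that reached 1 FPKM in 3 libraries or more. The added 1 shrinks the folds of low genes. The fits were also run on simulated counts with known changes and independent libraries, which checks the code and not the calls in these data. Replicates differed by more than sampling noise (chi-square per degree of freedom at least 6.58). Intervals are 95% intervals of the fit. The libraries held 7781283 to 10184268 gene counts, so the lowest genes, such as Cdkn2c, have wide intervals.

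Alternatives were other scalings, filters, DESeq2 1.42.0, limma-voom, a replicate block, each library left out, FPKM with pseudocounts of 1 and 0.1, a threshold of 0.1 and, chosen after seeing the data, leaving out the Rn45s row. Genes named are the 10, Srsf1, up to 4 called members and the most abundant tested member of each list by mean FPKM, the 3 nearest profiles of each changed gene, and Hspa1a and Rn45s; others are marked or lie beside one of the 10 in the genome or pathway. Exon overlaps come from GENCODE M21 (GRCm38) and are given as shares only. The genes and lists were chosen with earlier results of these data known. Alignment metrics were not used here.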

Additional observations from a re-analysis of the deposited data

How the results depend on the processing

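Of the 10 genes, 3 passed in the analysis reported, and between 0 and 4 did under the alternatives. The count was 1 with limma on log2(FPKM + 1) without a filter, and from 0 to 4 with each library left out, where the genes called in all ranged from 194 to 1990 and the pathway genes called from 2 to 19. Without a filter on FPKM, 1146 genes in all and 9 pathway genes passed, against 1923 and 17, and at a threshold of 0.1 there were 2972 in all. Cdk4 and Ccne2 kept their sign in all 19 alternatives and their call in 17 and 15 of them; their log2 fold changes ranged from 0.63 to 0.75 and 0.71 to 1.03 with a library left out, and Ccne2 did not pass with unfiltered FPKM (0.84, adjusted p = 0.0529). Rb1 kept its sign in 19 and its call in 9: it did not pass with upper-quartile scaling (-0.49, adjusted p = 0.0521), library size alone (-0.40), limma on log2(FPKM + 1) (-0.38, also unfiltered), log2(FPKM + 0.1) (-0.39) or 5 of the 6 settings with a library left out (-0.62 to -0.37 over the 6). Cdkn1b passed with DESeq2 (-0.71, adjusted p = 0.042), at a threshold of 0.1 (-0.70) and with the replicate block (-0.71, adjusted p = 0.0137). With a library left out it ranged from -0.97 to -0.50 and passed only without WT replicate 3. The sign turned, without any call, for Ccnd2 with library size alone (0.067) and FPKM (0.0896 with a pseudocount of 1, filtered or not, and 0.09 with 0.1) and for Ccnd3 with FPKM (0.0393, filtered or not, and 0.0426). With a library left out the ranges were -0.18 to 0.18 for Ccnd2, -0.36 to 0.021 for Ccnd3, -0.042 to 0.96 for Ccne1 and -0.012 to 0.22 for Cdk6. Cdk2 and Cdkn2c kept sign and call throughout. Cdkn2c was not tested at a mean CPM of 5 or more. The causes were not tested, beyond the fewer samples that leaving out a library gives.

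For libraries of the same number, the correlation of their deviations from the group means was 0.24, 0.01 and 0.28. Replicates 1 and 3 of the cKO-labelled group correlated best with the WT library of their own number. For replicate 1 the value with WT replicate 2 was close (0.21), and replicate 2 did not correlate best with its own number. Whether libraries of the same number were paired was not tested. The block moved the number of genes called to 2270 and those among the 10 to 4.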
